A study of Mus musculus with 2 samples.

Results

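The glycolysis and hypoxia response genes are 35 named mouse genes: the enzymes of glycolysis, the transporters that bring glucose in and lactate out, and the oxygen-sensing HIF system with some of its targets. They were chosen by name and no measured value was a criterion, but earlier results of these data were known when they were chosen. All 35 of 35 were found among 20720 protein-coding genes on chromosomes 1 to 19. An open interval belonged to a gene if it reached within 1 kb of one of its transcription start sites (a promoter interval), or if it lay outside every protein-coding promoter and its summit was nearest to a start site of that gene within 100 kb (a distal interval). By this rule 347 of 127423 intervals in the vehicle library and 505 of 179414 intervals in the TAMo library belonged to the 35 genes.

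The libraries were ATAC-seq libraries, which report where a transposase can cut open chromatin, of CD8+ T cells of the OT-I strain, whose transgenic receptor sees an ovalbumin peptide. The labels give the genotype as WT and no age or sex. Both cultures received the ovalbumin peptide for 48 h. One culture held vehicle, and the other held TAMos, by the labels CD11b+ and Ly6G- cells with high Ly6C, taken from spleens of mice that carried tumours of LLC, the Lewis lung carcinoma. The labels give no number of mice. After culture the CD8+ T cells were sorted, about 50000 per library, with 1 library per group, so no difference below has a replicate check and no p-value was computed.

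Glycolysis splits glucose to pyruvate, and activated T cells run it at a high rate even when oxygen is present, exporting the excess as lactate. Many of its genes are direct targets of the hypoxia-inducible factors, heterodimers of an oxygen-labile subunit (HIF-1α from Hif1a or HIF-2α from Epas1) with ARNT. Prolyl hydroxylases (Egln1, Egln2 and Egln3) mark the labile subunit when oxygen is present, VHL then targets it for destruction, and the surviving dimer binds a short DNA core, ACGTG or GCGTG, near its targets.

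Promoter sequences are shown first because this core can be read directly in them. The windows run from 250 bases before to 50 bases after a start site, and come from RefSeq on build GRCm38.p6 (mm10). Of the 35 genes, 32 matched; Slc2a3, Epas1 and Bhlhe40 did not. The first 3 below, Ldha, Egln2 and Bnip3, held 7, 6 and 5 cores. Hk1 and Slc16a1 tied with Bnip3 at 5 and are not printed. A CACGTG palindrome counted as 2 cores, 1 per strand. Egln2, Bnip3 and Slc16a1 each held 1 such palindrome and Hk1 held 0, so this order and the tie with Hk1 depend on that way of counting. Adm and Slc2a1 had the highest and the lowest of the 33 promoter ratios in the comparison that follows, and Car9 had no promoter interval in either library; these last 3 were chosen after their values were seen. Capitals mark every ACGTG or GCGTG, on either strand, so that CACGT and CACGC are also in capitals.
Ldha (chr7:46845554-46845853, plus strand): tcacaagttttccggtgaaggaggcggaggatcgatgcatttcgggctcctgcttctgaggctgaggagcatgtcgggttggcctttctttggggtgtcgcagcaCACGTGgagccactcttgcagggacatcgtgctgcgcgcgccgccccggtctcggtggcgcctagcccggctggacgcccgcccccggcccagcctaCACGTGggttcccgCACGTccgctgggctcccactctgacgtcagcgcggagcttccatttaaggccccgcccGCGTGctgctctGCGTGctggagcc
Egln2 (chr7:27166753-27167052, minus strand): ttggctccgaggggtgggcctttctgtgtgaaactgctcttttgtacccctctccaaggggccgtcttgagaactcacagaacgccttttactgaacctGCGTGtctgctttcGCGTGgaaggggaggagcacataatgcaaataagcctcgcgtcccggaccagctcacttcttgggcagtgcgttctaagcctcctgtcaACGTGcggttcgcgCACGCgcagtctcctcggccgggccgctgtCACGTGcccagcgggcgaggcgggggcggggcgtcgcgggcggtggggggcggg
Bnip3 (chr7:138909457-138909756, minus strand): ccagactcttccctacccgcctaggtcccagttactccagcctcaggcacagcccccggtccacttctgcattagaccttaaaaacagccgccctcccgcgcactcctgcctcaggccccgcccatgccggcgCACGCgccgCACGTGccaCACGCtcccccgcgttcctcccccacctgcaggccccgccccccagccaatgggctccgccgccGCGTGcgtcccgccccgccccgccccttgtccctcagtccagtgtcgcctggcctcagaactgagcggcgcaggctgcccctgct
Adm (chr7:110627407-110627706, plus strand): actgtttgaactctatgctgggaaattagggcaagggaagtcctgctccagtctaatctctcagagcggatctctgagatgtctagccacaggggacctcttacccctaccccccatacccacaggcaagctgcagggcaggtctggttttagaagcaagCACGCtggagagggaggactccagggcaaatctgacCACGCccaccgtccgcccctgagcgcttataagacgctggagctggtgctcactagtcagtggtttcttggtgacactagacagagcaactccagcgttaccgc
Slc2a1 (chr4:119108495-119108794, plus strand): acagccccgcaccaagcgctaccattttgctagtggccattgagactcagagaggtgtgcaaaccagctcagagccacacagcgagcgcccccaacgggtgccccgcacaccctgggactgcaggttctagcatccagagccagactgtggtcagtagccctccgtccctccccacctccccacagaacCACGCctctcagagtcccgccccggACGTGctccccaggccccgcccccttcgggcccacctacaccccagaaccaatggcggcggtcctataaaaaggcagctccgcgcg
Car9 (chr4:43506776-43507075, plus strand): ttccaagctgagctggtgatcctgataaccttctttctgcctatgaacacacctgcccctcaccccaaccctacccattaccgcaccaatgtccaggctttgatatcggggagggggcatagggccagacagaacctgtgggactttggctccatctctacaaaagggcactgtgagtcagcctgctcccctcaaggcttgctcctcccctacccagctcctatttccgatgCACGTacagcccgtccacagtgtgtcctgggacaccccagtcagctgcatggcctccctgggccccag

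ACGTG was present in 19 of 31 windows of these genes that also had promoter intervals in both libraries (61.3%), against 24.98% of 13398 windows of all genes with such intervals. The 2 sets differ in make-up: the 31 windows were 1 per gene, whereas the 13398 came from 10507 genes. GCGTG was present in 20 of the 31 (64.5%), against 49.7%. At least 1 core of either spelling was found in 83.9% of the 31 windows against 61.1%, and 3 or more in 38.7% against 15.6%. The longer palindrome CACGTG, which holds ACGTG on both strands and is also bound by MYC family proteins, occurred in 16.1% against 9.66%. Each such palindrome added 2 to the number of cores, which also enters the share with 3 or more. The windows of these genes were also slightly richer in G and C (median 65.0% against 60.7%). They held more C followed by G, a pair that both cores contain (median 24 against 20 per window). Ldha, whose enzyme turns pyruvate into lactate, held 7 cores, 4 of them as 2 CACGTG palindromes read on both strands. A match describes the letters only and is not a measured binding site.

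Facts of the libraries that touch every value are these. Read coverage at each summit was recovered from the deposited fold enrichment and −log10 p, and was divided by the library's background coverage, 4.71 reads in vehicle and 5.80 reads in TAMo. A ratio is the log2 of TAMo over vehicle after this division, with a 95% exact binomial interval that covers counting error only. Reads are not independent molecules. Over 12887 promoters the median ratio was 0.03 (quartiles −0.13 and 0.22), and over 74249 distal regions open in both libraries it was 0.37, so distal regions were read against that shift. A change in the share of cells that are open at a site and a change in openness per cell cannot be told apart in such bulk libraries. All 12 CD8 T cell markers had promoter intervals in both libraries. Of 16 monocyte and macrophage markers, 7 had a promoter interval in vehicle and 11 in TAMo. Of all 20720 protein-coding genes, 13697 had one in vehicle and 14224 in TAMo. The summed level of the 16 markers was 277 and 493 times background. Cd300c alone, with no vehicle interval, had 553 reads in TAMo. Lyz2, Ly6c2, Ccr2 and Mpeg1 had no promoter interval in either library. None of 6 neutrophil markers had one. Of 6 B cell markers, 3 had a promoter interval in vehicle and 4 in TAMo, with Pax5 in TAMo only. Those with a ratio were Ms4a1 (1.02, 0.35 to 1.74), Cd79b (−0.18, −0.79 to 0.44) and Ebf1 (−0.42, −0.65 to −0.18). The part of these myeloid and B cell signals in the results below was not tested.

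Promoters of 34 of the 35 genes had an interval in both cultures and differed little between them. A promoter interval was present in both libraries for 34 genes and in neither for Car9, and none had one in a single library; over all genes 3.4% had a promoter interval in TAMo only, 0.854% in vehicle only and 30.5% in neither list. For 33 genes the strongest intervals of both libraries overlapped and gave a ratio. None of the 33 was at least 1.5-fold higher in TAMo, where the background over all promoters was 9.07%, and none was at least 1.5-fold lower, where it was 3.28%. The median ratio of the 33 was 0.04 (quartiles −0.12 and 0.20), close to that of all promoters. Past a log2 ratio of 0.32 in size, 2 were higher (Adm and Ankrd37; background 17.9%) and 1 was lower (Slc2a1; background 9.77%). The counting interval lay above 0 for 11 genes (background 26.6%), below 0 for 5 (background 17.5%) and held 0 for 17. These small differences depended on the zero point: 19 of the 33 ratios were above 0 as scaled by background (57.6%, against 56.0% of all promoters), but 3 (Adm, Ankrd37 and Egln1; 9.09%, against 20.6%) when ratios were centred on the median of all shared regions, 0.28.

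**Figure D1:**
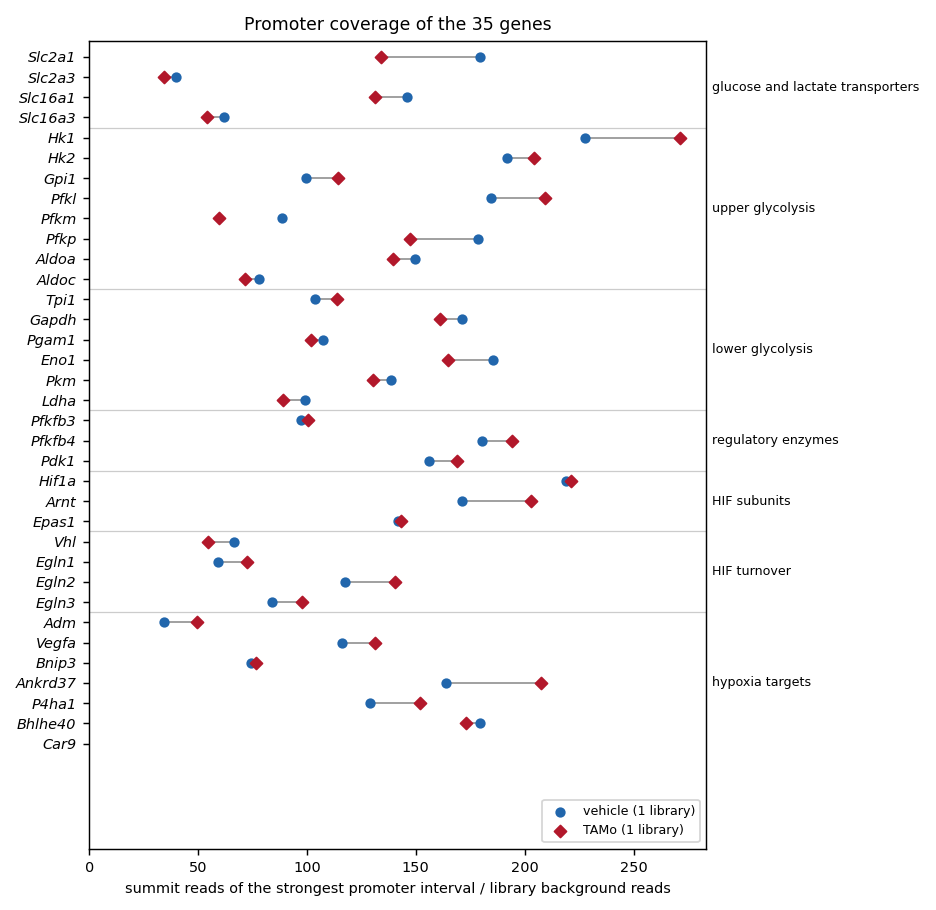
Summit coverage of the strongest promoter interval of each gene, in multiples of the library background (x axis, linear), for the vehicle library (blue circles) and the TAMo library (red diamonds), 1 library each; a line joins the values where both intervals overlap. Values run from 34 to 272 times background, Car9 has none, and the Pfkm values come from different start sites.

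These promoters had higher coverage than promoters in general. Summit coverage of the 33 ran from 162 to 1072 reads in vehicle with a median of 652, and from 199 to 1575 reads in TAMo with a median of 778. Over all genes with a promoter interval in the library named, the medians were 422 reads (vehicle) and 504 reads (TAMo). These genes did not need an overlapping interval in the other library, as the 33 did, so the sets are unlike. Of the 34 genes with a promoter interval, 26 had it among the strongest 10% of the vehicle list (76.5%, against 54.6% of all genes with a promoter interval there) and 25 among the strongest 10% of the TAMo list (73.5%, against 53.7%). The summits of the paired intervals lay a median of 7 bp apart, and within 100 bp of each other for 30 of the 33. At P4ha1, Bnip3 and Bhlhe40 they lay 180, 278 and 378 bp apart, so the ratios of these genes compare different summits of an interval. The highest coverage in both libraries was at Hk1, which encodes a broadly expressed hexokinase, the enzyme that traps glucose in the cell (chr10:62339837-62340807 in vehicle), and the lowest was at Adm in vehicle and at Slc2a3 in TAMo.

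The 4 transporter promoters were below 0, where 43.98% of all promoters lay. The other scalings tried lower every ratio, so they could not change this sign. Centred on the median of all shared regions, 79.4% of all promoters were below 0. Slc2a1 encodes GLUT1, the main glucose transporter of activated T cells. It had 846 reads in vehicle and 778 reads in TAMo (chr4:119108427-119109469 in vehicle), a ratio of −0.42 (−0.56 to −0.28), and 6.63% of all promoters were at or below it. Slc2a3, which encodes the high-affinity glucose transporter GLUT3, was at −0.22 (−0.51 to 0.08) on 188 reads and 199 reads. The lactate transporter genes Slc16a1 (MCT1) and Slc16a3 (MCT4) were at −0.15 and −0.20. The intervals of Slc2a3 and Slc16a3 held 0. The Slc2a1 and Slc16a3 values also depended on the promoter window. At 2.5 kb the strongest TAMo interval of Slc2a1 was another one (chr4:119105708-119106321, 782 reads in vehicle and 1013 reads in TAMo, 0.07) that did not overlap the strongest of vehicle, so Slc2a1 had no ratio there, and the strongest Slc16a3 interval was another one with a ratio of 0.16.

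Among the enzymes, values lay on both sides of 0. Upper glycolysis runs from hexokinase to aldolase. Hk1 was at 0.25 (0.14 to 0.37; 1072 and 1575 reads in vehicle and TAMo). Hk2, the hexokinase induced on activation, was at 0.09 (−0.03 to 0.22). Pfkl, Pfkm and Pfkp encode the liver, muscle and platelet types of phosphofructokinase, which commits sugar to glycolysis. Pfkl was at 0.18 (0.06 to 0.31) and Pfkp at −0.28 (−0.42 to −0.14), and their intervals did not overlap. At Pfkm the strongest interval of vehicle by −log10 q lay at chr15:98093430-98093773, shared with the promoter of Senp1 (417 reads). That of TAMo lay at chr15:98108304-98109194 (345 reads), so this pair gave no ratio. With overlapping intervals of both lists joined, the Pfkm promoter region of highest coverage was open in both libraries, with a ratio of −0.14. The unlike positions therefore do not show a switch of start site. Gpi1, the isomerase after hexokinase, was at 0.20, and the aldolase genes Aldoa and Aldoc were at −0.10 and −0.12. A second gene identifier named Aldoa, not counted among the 33, had its own promoter interval with 226 reads in vehicle and 206 reads in TAMo, a ratio of −0.43 (−0.71 to −0.16), slightly below that of Slc2a1.

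Lower glycolysis, from triose phosphate to lactate, had 5 of 6 ratios below 0 (against 43.98% of all promoters; all 6 when centred on all shared regions, against 79.4%), within a narrow range of −0.17 to 0.13. Ldha had 466 reads in vehicle and 516 reads in TAMo, a ratio of −0.15 (−0.34 to 0.03). Eno1, the enolase gene, was at −0.17 (−0.30 to −0.03), the interval here that excluded 0. Gapdh, Pgam1 and Pkm, which encode a dehydrogenase, a mutase and pyruvate kinase, lay between −0.09 and −0.07, and Tpi1, the triose isomerase, was at 0.13. The regulatory enzyme genes Pfkfb3 and Pfkfb4, whose products set the level of an activator of phosphofructokinase, and Pdk1, whose product keeps pyruvate out of the mitochondria, were at 0.05, 0.10 and 0.11, all with intervals that held 0.

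**Figure D2:**
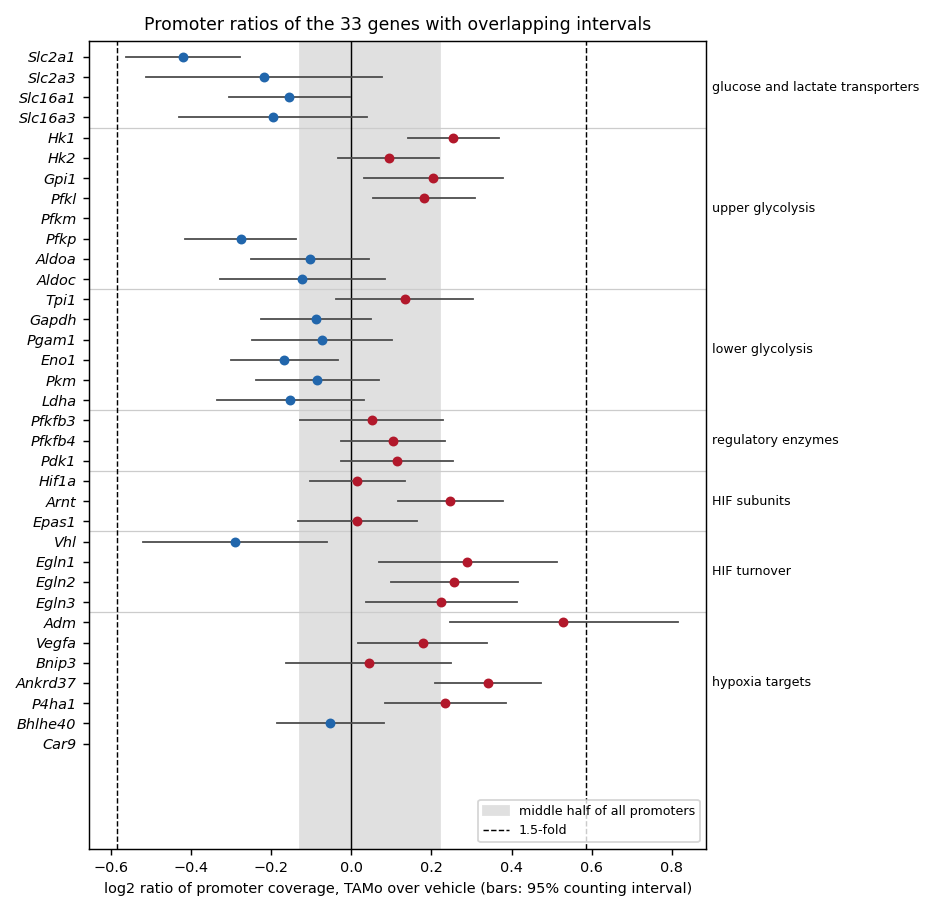
Log2 ratio of promoter coverage, TAMo over vehicle, for 33 genes grouped by role (points, red above 0 and blue below 0), with bars for the 95% counting interval, a grey band between the quartiles of all promoters (−0.13 and 0.22) and dashed lines at 1.5-fold. Every point lies inside the dashed lines, and Adm (0.53) and Slc2a1 (−0.42) are the extremes.

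In the oxygen-sensing system the labile subunit genes differed least. Hif1a had 1032 reads in vehicle and 1284 reads in TAMo, a ratio of 0.01 (−0.10 to 0.13). Epas1 was also near 0, at 0.02 (−0.13 to 0.16), and Arnt, the shared partner subunit, was at 0.25 (0.12 to 0.38). The hydroxylase genes Egln1, Egln2 and Egln3 were at 0.29, 0.26 and 0.22, each with an interval above 0. Vhl, which encodes the recognition subunit of the ubiquitin ligase, was at −0.29 (−0.52 to −0.06).

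Among the hypoxia targets the highest promoter ratio of all 33 genes was at Adm, which encodes the vasodilator peptide adrenomedullin. It had 162 reads in vehicle and 288 reads in TAMo (chr7:110627502-110627728 in vehicle), a ratio of 0.53 (0.25 to 0.82). Of all promoters, 10.2% were at or above it. Ankrd37, an ankyrin repeat gene induced by HIF-1, was at 0.34 (0.21 to 0.47) on 771 reads and 1203 reads; its interval also covers the promoter of Lrp2bp. P4ha1, a collagen prolyl hydroxylase subunit, was at 0.23 and Vegfa, the vascular growth factor, at 0.18. Bnip3, a mitophagy receptor, was at 0.04 and Bhlhe40, a transcription factor that supports cytokine production in T cells, at −0.05. Car9, the carbonic anhydrase gene widely used as a hypoxia marker, had no promoter interval, but both libraries had an open region in its body, 1814 bp from the start site (chr4:43508257-43509210), with 369 reads in vehicle and 533 reads in TAMo (0.23, 0.04 to 0.43). By the number of motif cores, the median promoter ratio was 0.13 for 5 genes with no core, 0.14 for 6 with 1 core and 0.01 for 19 with 2 or more.

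Distal regions varied far more than promoters, to about the degree seen at distal regions in general. The 35 genes had 238 distal regions open in both libraries, 133 outside protein-coding genes, 95 in introns and 10 in exons. Of these, 93 were at least 1.5-fold higher in TAMo (39.1%, against a background of 39.8%), 21 were at least 1.5-fold lower (8.82%, against 9.04%) and 124 were neither. Their median ratio was 0.28 (quartiles −0.04 and 0.84), against 0.37 over all distal shared regions (quartiles −0.11 and 1.00). At 4-fold, 17 were higher and 0 lower (7.14% higher, against a background of 6.81%; 0.353% of all distal shared regions were at least 4-fold lower). Of 29 genes with a distal shared region, 24 had a higher one (82.8%, against 71.9% of all such genes), 12 had a lower one (41.4%, against 28.2%) and 11 had both (37.9%, against 21.1%); these genes had a median of 6 such regions each and all genes 3. The split of higher against lower depended on the scaling: centred on the distal median, 52 were higher and 41 lower. The shares of all distal shared regions under that centring are not given, so these 2 counts describe these genes only.

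**Figure D3:**
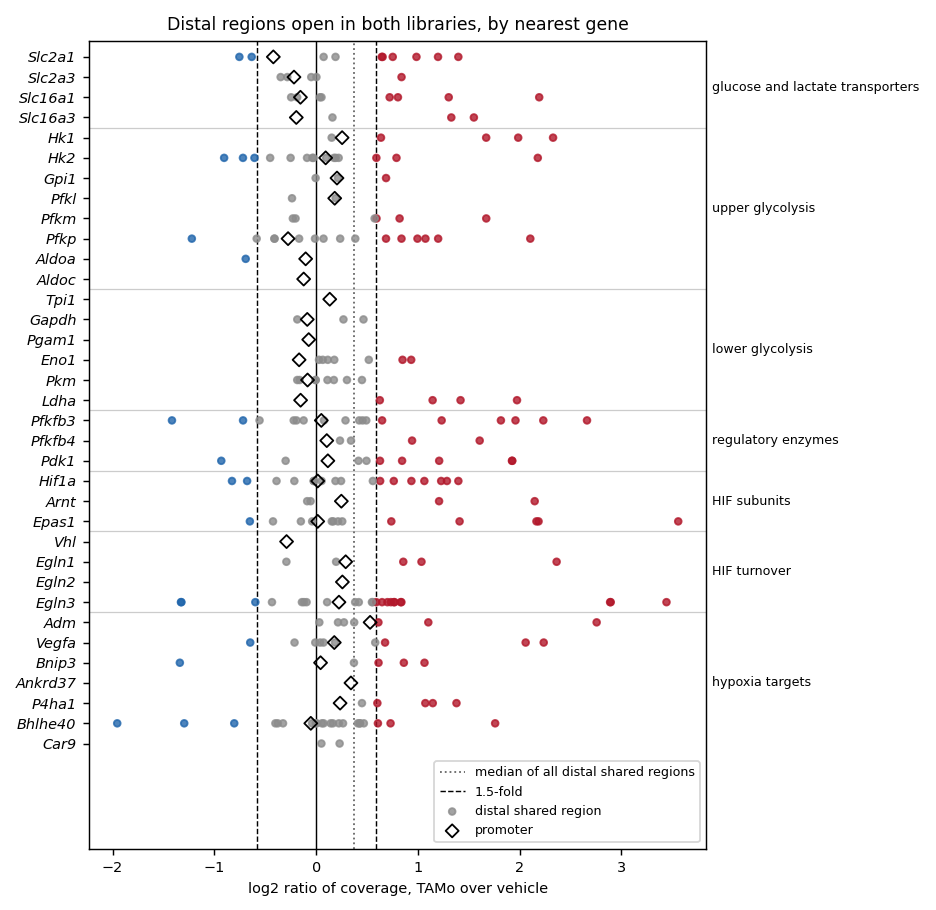
Log2 ratio of coverage, TAMo over vehicle, for 238 distal regions open in both libraries (filled circles, 1 row per nearest gene; red and blue past 1.5-fold, grey otherwise), with promoter ratios as open diamonds, dashed lines at 1.5-fold and a dotted line at the median of all distal shared regions (0.37). Promoters stay between −0.42 and 0.53, while distal regions run from −1.96 to 3.56.

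Fewer of the regions within 10 kb of a start site were higher, both near the 35 genes and in general. Within 10 kb of a start site, 15 of 66 regions were higher (22.7%, against 34.3% of all distal regions at that distance). From 10 to 50 kb, 58 were higher (46.4%, against 41.4%), and from 50 to 100 kb, 20 of 47 (42.6%, against 44.2%). Among 27 genes with both a promoter ratio and a distal region, the distal median exceeded the promoter ratio at 22 (81.5%, against 70.8% over all such genes).

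Egln3, a hydroxylase gene that HIF itself induces, had the most distal shared regions, 23. Of these, 11 were higher and 3 lower, against 39.8% and 9.04% of all distal shared regions. All but 1 of the higher regions lay downstream of the start site, and the lower ones lay upstream. The region 86582 bp downstream (chr12:54116932-54117517) had 26 reads in vehicle and 348 reads in TAMo, a ratio of 3.44 (2.87 to 4.08). A neighbouring pair about 60 kb downstream, 342 bp apart, had 34 and 26 reads in vehicle against 310 and 238 reads in TAMo (chr12:54143738-54144044, 2.89; chr12:54144387-54144727, 2.89), and were counted as 2 regions. On the upstream side, the region at −17666 bp (chr12:54221379-54221667) had 120 reads in vehicle and 59 reads in TAMo, a ratio of −1.32 (−1.80 to −0.86). Its neighbour at −13578 bp was at −1.33 on 51 reads and 25 reads. The promoter between these sides was at 0.22.

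The highest distal ratio near any of the genes was 50220 bp upstream of Epas1 (chr17:86703299-86703685), with 16 reads in vehicle and 232 reads in TAMo (3.56, 2.83 to 4.39), while the Epas1 promoter was at 0.02. An Epas1 intron region at 25734 bp had 75 reads in vehicle and 414 reads in TAMo (2.16). Near Adm, a region 32133 bp downstream (chr7:110659551-110660037) had 44 reads in vehicle and 366 reads in TAMo (2.76, 2.30 to 3.24). In the other 6 Adm regions the ratio ran from 0.03 to 1.10. Of all distal shared regions, 1.87% were at or above the Adm value and 0.321% at or above that of Epas1.

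The lowest distal ratio was 53579 bp upstream of Bhlhe40 (chr6:108606748-108607245), with 148 reads in vehicle and 47 reads in TAMo (−1.96, −2.46 to −1.47); 0.391% of all distal shared regions were at or below it. A stronger region at −91065 bp (chr6:108569369-108570047) had 413 reads in vehicle and 207 reads in TAMo (−1.30, −1.54 to −1.05). Close to Bhlhe40, from −1929 to 17051 bp, the 6 regions had ratios from −0.00 to 0.43. Other low regions lay in introns of Pfkfb3 (chr2:11547686-11547956, 154 and 71 reads, −1.42) and Bnip3 (chr7:138903824-138904241, 111 and 54 reads, −1.34). Pfkfb3 also had a high one 19519 bp upstream, with 19 reads in vehicle and 148 reads in TAMo (2.66).

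**Figure D4:**
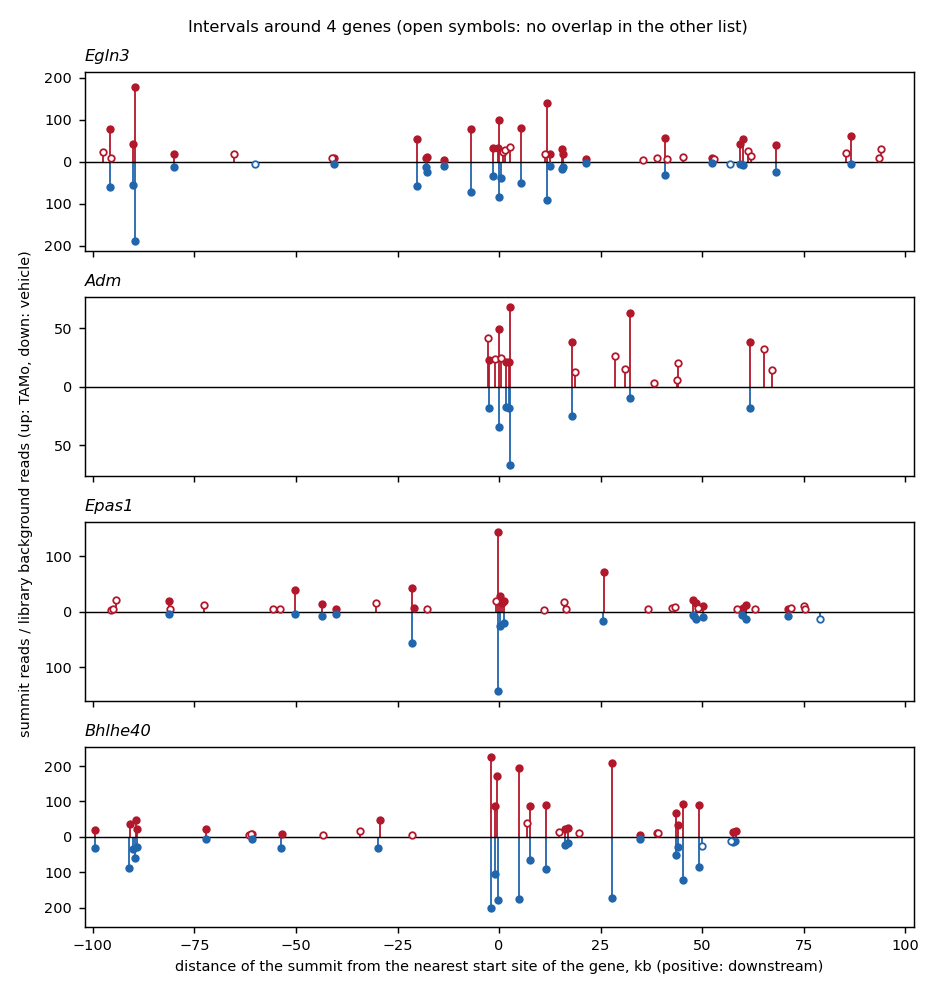
Summit coverage in multiples of library background of every interval assigned to Egln3, Adm, Epas1 and Bhlhe40 (y axis, TAMo up in red, vehicle down in blue, scales differ between panels) against the distance of its summit from the nearest start site in kb; open symbols overlap no interval of the other list. The strongest promoter intervals are within 1.5-fold up and down, with that of Adm the most unequal (34.4 times background in vehicle and 49.7 in TAMo), and single distal sites, such as those 86582 bp from Egln3 and 32133 bp from Adm, are tall on the TAMo side only.

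At a few genes, chosen here after their values were seen, most or all distal regions had the same call. Over all distal shared regions 39.8% were at least 1.5-fold higher and 9.04% lower, with a median ratio of 0.37. All 4 regions upstream of Ldha were at least 1.5-fold higher in TAMo, with ratios from 0.63 to 1.97, although its promoter was at −0.15. The tallest, at −12377 bp, had 216 reads in vehicle and 711 reads in TAMo (1.42, 1.20 to 1.64). Of 5 intron regions of Hk1, 4 were higher, among them one at 19963 bp with 88 reads in vehicle and 544 reads in TAMo (2.33). Of 5 regions near P4ha1, 4 were higher. At the other end, none of 8 regions near Pkm was past 1.5-fold, with ratios from −0.19 to 0.45.

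Intervals present in a single list were far more numerous in TAMo, as over the whole genome. The genes had 428 distal intervals in the TAMo list and 280 in the vehicle list, a ratio of 1.53 against 1.43 over all distal intervals. Of the 428, 183 overlapped no vehicle interval (42.8%, against a background of 41.6%). Of the 280, 33 overlapped no TAMo interval (11.8%, against 13.8%). The lists differ in length, and with the TAMo list shortened to the vehicle length the counts were 104 and 63. The shares of all distal intervals at that length are not given. Coverage of the other library is not known at such sites, so a missing interval need not be a closed site. Single-list intervals were weak, with a median of 56 reads for TAMo only against 165 reads for shared TAMo intervals, and 39 reads for vehicle only against 90 reads for shared vehicle intervals.

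**Figure D5:**
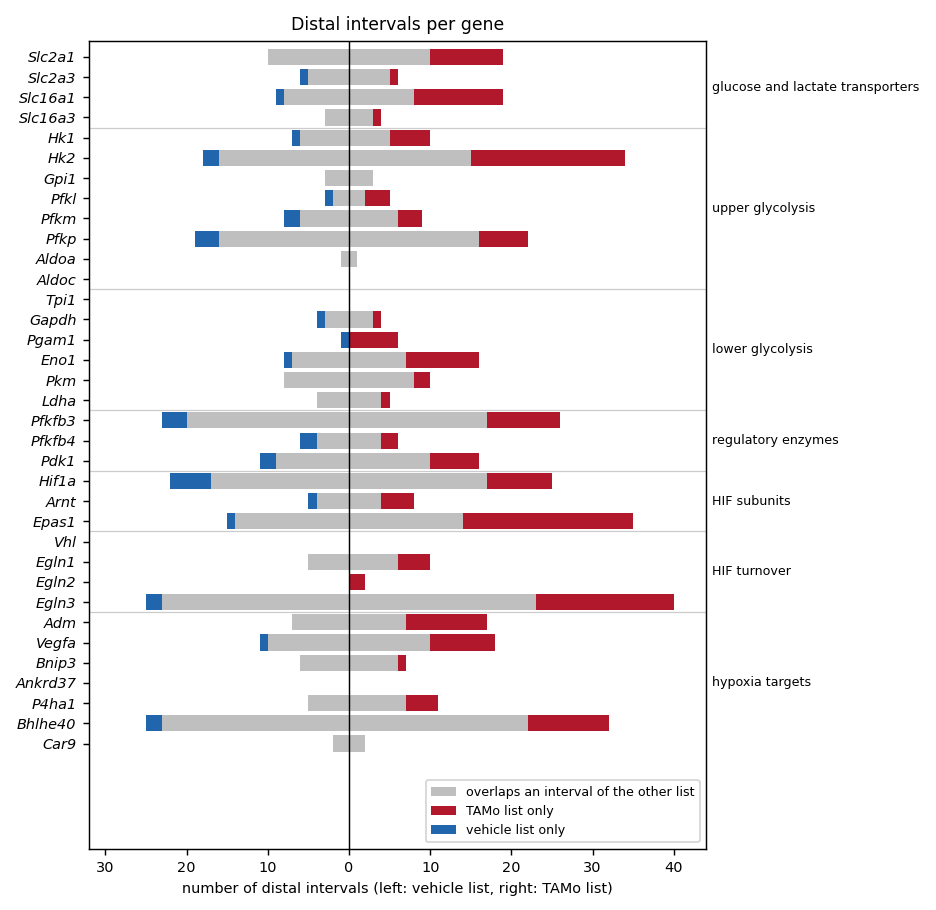
Number of distal intervals per gene in the vehicle list (left of 0) and the TAMo list (right of 0), with intervals that overlap the other list in grey and single-list intervals in blue or red. Red segments are longer than blue ones for most genes, with 21 at Epas1, 19 at Hk2 and 17 at Egln3, in lists of unequal length.

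By the authors' −log10 q, 5 of the 183 TAMo-only intervals of these genes stood among the strongest 25% of their list (2.73%, against 2.87% of all TAMo-only distal intervals), and 0 of the 33 vehicle-only ones did (against 0.466%). The strongest lay in an intron of Pfkp (chr13:6614053-6614431) with 382 reads. The others lay 10633 bp upstream of Hk2 (191 reads), 69304 bp upstream of Hif1a (chr12:73831741-73832307, 233 reads), 93939 bp downstream of Egln3 (177 reads) and 65301 bp downstream of Adm (189 reads). The next by rank were near Epas1 (118 reads), again in Pfkp (363 reads) and again near Adm (115 reads). Hk2 and Epas1 had the most TAMo-only intervals, 19 of 34 and 21 of 35, against 41.6% of all distal TAMo intervals. The strongest vehicle-only intervals lay in introns of Pfkfb3 (108 reads) and Pgam1 (134 reads), followed by exons of Epas1 (65 reads) and Pfkp (127 reads) and sites near Pfkm, Hif1a and Bhlhe40 with 49 to 156 reads. Aldoc, Tpi1, Vhl and Ankrd37 had no distal interval in either list.

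A wider list of the same pathways held some promoters past 1.5-fold, at about the rate of all genes. Of 42 further glycolysis and glucose metabolism genes, 33 had a promoter ratio, with a median of 0.10. Of these, 3 were at least 1.5-fold higher (9.09%, against a background of 9.07%) and 0 lower (background 3.28%). Hk3, a hexokinase known from myeloid cells, had 90 reads in vehicle and 648 reads in TAMo, a ratio of 2.55 (2.23 to 2.88). Fbp1, a gluconeogenic phosphatase, was at 1.48 on 23 reads and 79 reads, and Pdk4, a pyruvate dehydrogenase kinase, at 0.63 with an interval that held 0. Of the 16 monocyte and macrophage markers, 5 had a promoter interval in TAMo only (31 to 553 reads), 1 in vehicle only (Fcgr1, 18 reads) and 4 in neither. Over all genes these shares were 3.4%, 0.854% and 30.5%. Of the 5 with a ratio, Cx3cr1 (2.18), Cd14 (1.24) and Spi1 (0.89) were at least 1.5-fold higher, while Cd68 (0.07) and Cebpa (0.11) had intervals that held 0. The part of these markers in the Hk3 and Fbp1 values was not tested. Pfkfb2, whose product also sets the activator of phosphofructokinase and which was picked out after its value was seen, was the lowest, at −0.58 (−0.75 to −0.41).

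Of 50 further hypoxia response genes, 47 had a promoter ratio, with a median of 0.05. Of these, 3 were at least 1.5-fold higher (6.38%, against 9.07%) and 2 lower (4.26%, against 3.28%). The higher ones were Bhlhe41, a relative of Bhlhe40 (0.96, 0.60 to 1.34), Flt1, a VEGF receptor (0.84, on 20 reads and 44 reads), and Nt5e, which encodes the ectoenzyme CD73 (0.73, 0.48 to 0.98; 203 reads in vehicle and 414 reads in TAMo). Among the lower was Stc2, which encodes a secreted glycoprotein (−1.56, on 43 reads and 18 reads).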

How the data were processed

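ATAC-seq was measured in 1 vehicle and 1 TAMo library of about 50000 sorted CD8+ T cells, sequenced as paired reads of 150 bp, per the labels' protocols. Per the submitters' processing notes the tools were Trimmomatic 0.36, Bowtie2 and MACS2, with build mm10. Their settings, read shifting and duplicate removal were not stated. The authors called peaks in each library separately. Per the deposited values, each row holds a score (10 times −log10 q, rounded down), a fold (ratio of the summit over local background), and the −log10 of p and of q. The lists held 163215 rows for vehicle and 225656 for TAMo; rows with the same interval were counted as 1 interval with its strongest summit.

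Coverage was computed as the whole number of reads that gives both the deposited fold, taken as (coverage + 1)/(background + 1), and the −log10 p, taken as a Poisson tail, within 1% of the step between whole numbers. This left out 30 vehicle and 48 TAMo rows. The most frequent background stood for depth (ratio 1.23). Start sites came from the GENCODE M21 basic annotation (mm10). Intervals shared by both lists overlapped by at least 1 bp, and shared regions need a call in both libraries, which leaves out the weakest sites. The coverage step was tested on simulated data made with the same formulas, so that test could not check whether the peak caller used them. Genes were called higher or lower at 1.5-fold. Aldoa has a second gene identifier in the annotation, and the values of the first were counted. Hypoxia and glycolysis genes on chromosome X were not analysed here.

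All 35 genes are accounted for. Named distal sites were the 8 strongest single-list intervals per library, and the 5 highest and 5 lowest shared regions with at least 50 reads at a summit; other sites were picked after their values were seen. Sequences were 3 of the promoters with most motif cores (Hk1 and Slc16a1 tied with Bnip3 for the third and were left out), with Adm, Slc2a1 and Car9 added later. Members and lists were chosen with earlier results of these data known. Analyses used Python 3.11.15, numpy 2.4.6, scipy 1.17.1 and pandas 2.3.3. The values of 1 gene of the wider hypoxia list are not reported here, though it stays in that list's counts.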

Additional observations from a re-analysis of the deposited data

How the results depend on the processing

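With 1 library per group no library could be left out, and no paired analysis was possible because each group has a single library. Of 62 recomputed values of the 10 summary results, 49 stayed within 1.5 times the count, or within the counting interval of the median, as reported. Centred on the median of all shared regions, the promoter median of the genes was −0.23 (0.04 as reported), 1 promoter was at least 1.5-fold lower in place of 0, and distal shared regions at least 1.5-fold higher and lower numbered 55 and 33 in place of 93 and 21. Centred on the median of their own class, they numbered 52 and 41. The distal median of the genes was 0.28 as reported. It was 0.003 when centred on all shared regions and −0.09 when centred on its own class. Both of these were counted among the 49 that stayed, so that criterion is a loose one for the distal median. At a threshold of 0.32 on the log2 scale, 2 promoters were higher and 1 lower, and 33 distal regions were lower. At 2-fold, 50 distal regions were higher and 7 lower. With the TAMo list shortened to the vehicle length, single-list intervals numbered 104 for TAMo and 63 for vehicle, in place of 183 and 33. For these recomputed distal counts the shares over all regions are not given, so they describe these genes only. Of 230 recomputed ratios of single promoters, 33 left their counting interval, 31 of them on centring on all shared regions and 2 with a 2.5 kb window (Slc16a3, 0.16, and Bhlhe40, 0.16); Slc2a1 had no ratio with that window, and the lowest was then −0.29. The count of 0 promoters past 1.5-fold in either direction held with 0.5 and 2.5 kb windows and with 1 joined region for both libraries. Requiring −log10 q of at least 5, or the summit inside the window, a choice made after seeing the data, could not change it. Every strongest promoter interval of these genes passed both, the lowest −log10 q being 56.4 (Adm, vehicle). Depth limits weak sites: the Epas1 region with 16 reads in vehicle had a counting interval from 2.83 to 4.39.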
